A study of Mus musculus with 4 samples.

Results

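The genes described here are 10 members of the machinery by which phagocytes take up dying cells and bind altered or foreign ligands: Timd4, Mertk, Axl, Gas6, Pros1, Stab1, Marco, Msr1, Cd163 and Mrc1. They were taken from the tables by symbol, a rule that uses no measured value, with earlier results of these data known, and all 10 were found once each among the 31054 features of the deposited tables. The samples were stromal vascular cells of the gonadal adipose tissue of male p16-CreERT2/R26-LSL-tdTomato mice aged 18 months. Tamoxifen was given to all of them, so that tdTomato labels cells in which the p16 promoter, a promoter linked to cellular senescence, was active when Cre was induced. Cells were sorted by the leukocyte antigen CD45 and by tdTomato (Tom) into 4 libraries, with 1 library per group. Their labels are CD45- Tom+ and CD45- Tom- for the first pair and CD45+ Tom+ and CD45+ Tom- for the second, and 4 values set in a row below follow this order. How many animals went into each is not given in the sources used here. With 1 library per group no difference between libraries has a replicate check, and no p-value is given.

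Efferocytosis, the clearance of apoptotic cells, starts when a phagocyte recognises phosphatidylserine exposed on the dying cell. Timd4 binds phosphatidylserine directly, whereas the TAM receptor tyrosine kinases bind it through soluble bridging proteins, Mertk through Gas6 and Pros1 and Axl through Gas6. Scavenger receptors such as Marco, Msr1 and Stab1 take up modified lipoproteins, microbes and cell debris, Cd163 takes up complexes of haemoglobin with haptoglobin, and the mannose receptor Mrc1 binds glycans. In adipose tissue several of these receptors are known as marks of resident macrophages.

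All members are protein-coding genes, and their positions are those of the mm10 (GRCm38) annotation. Timd4 (ENSMUSG00000055546) lies at chr11:46810800-46844332 on the plus strand, Mertk (ENSMUSG00000014361) at chr2:128698956-128802894 on the plus strand and Axl (ENSMUSG00000002602) at chr7:25757273-25788705 on the minus strand. Gas6 (ENSMUSG00000031451) lies at chr8:13465374-13494490 on the minus strand and Pros1 (ENSMUSG00000022912) at chr16:62854307-62929346 on the plus strand. Stab1 (ENSMUSG00000042286) lies at chr14:31139013-31168641, Marco (ENSMUSG00000026390) at chr1:120474538-120505024 and Msr1 (ENSMUSG00000025044) at chr8:39581685-39642673, all on the minus strand. Cd163 (ENSMUSG00000008845) lies at chr6:124304656-124330527 and Mrc1 (ENSMUSG00000026712) at chr2:14229392-14332057, both on the plus strand.

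Within the macrophages the members fell into patterns led by different kinds of cell, described below. For some of the members at the ends of these patterns, the 250 bases before the RefSeq start are shown (GRCm38.p6, 5′ to 3′ in the direction of transcription). These are Timd4 and Marco, highest in a kind led by Lyve1 and Cxcl13, and Stab1 and Mrc1, highest in a kind led by Cd209g and Ednrb. The Mrc1 window overlaps the first bases of the annotated gene, whose RefSeq start lies further in. The windows are chr11:46810549-46810798 (plus strand) for Timd4, chr1:120505025-120505274 (minus strand) for Marco, chr14:31168642-31168891 (minus strand) for Stab1 and chr2:14229164-14229413 (plus strand) for Mrc1. Capitals mark a core of sites for PU.1, a factor of all myeloid cells (GAGGAA, or TTCCTC on the other strand), or a MAF half-site, MAF being a family of factors of mature macrophages (TGCTGA, or TCAGCA on the other strand).
Timd4: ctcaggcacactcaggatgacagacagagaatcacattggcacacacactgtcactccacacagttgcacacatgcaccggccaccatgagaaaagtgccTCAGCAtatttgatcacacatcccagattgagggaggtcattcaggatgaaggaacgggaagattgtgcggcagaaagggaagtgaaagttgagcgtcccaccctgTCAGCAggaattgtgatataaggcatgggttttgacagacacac
Marco: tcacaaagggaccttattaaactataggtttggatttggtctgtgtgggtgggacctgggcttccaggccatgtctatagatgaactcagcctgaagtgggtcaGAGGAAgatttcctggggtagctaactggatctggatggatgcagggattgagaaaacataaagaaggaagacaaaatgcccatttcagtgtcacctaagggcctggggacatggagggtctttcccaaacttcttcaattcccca
Stab1: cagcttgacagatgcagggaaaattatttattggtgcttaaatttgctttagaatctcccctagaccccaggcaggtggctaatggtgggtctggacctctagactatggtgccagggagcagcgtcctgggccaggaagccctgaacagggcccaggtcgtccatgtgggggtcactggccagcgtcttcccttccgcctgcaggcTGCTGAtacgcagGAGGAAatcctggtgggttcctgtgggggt
Mrc1: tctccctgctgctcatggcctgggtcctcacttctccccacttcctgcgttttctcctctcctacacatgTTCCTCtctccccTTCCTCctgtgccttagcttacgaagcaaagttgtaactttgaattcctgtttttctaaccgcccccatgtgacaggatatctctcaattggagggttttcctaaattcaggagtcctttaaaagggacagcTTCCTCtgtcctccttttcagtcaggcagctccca
A RefSeq window was found for 9 of the 10 members, all but Msr1. The PU.1 core letters were in 4 of these 9 windows (Axl, Stab1, Marco and Mrc1) and in 23.1% of 27025 windows of the same length. The MAF half-site was in 2 of 9 (Timd4 and Stab1) and in 15.8% of all windows, and the GATA core AGATAA, sought on both strands because GATA6 marks large peritoneal macrophages, was in 0 of 9 and in 10.3% of all windows. Each window shown held a match. Those of Mertk, Gas6, Pros1 and Cd163, which were also highest in the Cd209g/Ednrb kind, held none of the searched letters and are not shown. The searched letters do not overlap one another. A match is a run of letters and not a measured site, and no match says only that these letters are not in this window.

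After filters 3886, 3674, 1927 and 4391 cells were kept in the 4 libraries, 13878 in all, with a median of 18331 to 19502 unique molecular identifiers (UMIs, which count captured transcripts) per cell. Levels are CPM, the UMIs of a gene per 1000000 UMIs of the cells summed. The tdTomato transcript followed its label, at 670 to 676 CPM in macrophage-like cells of the Tom+ libraries against 20.2 to 21.2 CPM in those of the Tom- libraries. The CD45 label did not separate leukocytes: Ptprc, which encodes CD45, was at 158 to 223 CPM over all cells in the 4 libraries, and adipose progenitor (APC)-like cells numbered 260, 1519, 106 and 1714. The pairs of libraries are therefore named only by their labels, and the 2 pairs are not taken as leukocytes and non-leukocytes. Pairs of libraries shared 26 to 4394 barcodes before filtering, mostly a deep and a shallow copy, and 1 to 14 after it. Of the macrophage-like cells 376 of 2262 had a barcode that also occurs in another library, and 2 were the shallower copy.

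Clustering without the 10 members gave 28 clusters, of which 20 fell into 13 classes named from marker lists and 8 stayed unnamed. The macrophage-like class held 2262 cells (731, 510, 372 and 649 by library), and all 10 macrophage markers were raised in both of its clusters. Levels are given with the 95% exact Poisson interval after them. The intervals cover counting error only, and where the UMIs of a gene sit in few cells they are too narrow. A level is given for a class in a library only with at least 50 cells, and for a macrophage kind with at least 25.

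Subclustering of the macrophage-like cells gave 8 kinds with at least 50 cells. They are called by leading genes, and the resolution, the cell minimums and the rules for naming were set after the data were seen. The members took no part in the clustering, but other genes of the same cells did, so levels across kinds are a description with no test. The Vcan/Il1b kind (466 cells) had 5 of 6 Arg1-high markers raised. Vcan, Ccr2 and Spn, which are on the monocyte marker list, were among its leading genes. The Mgl2/H2-Eb1 kind (355 cells) had 5 of 5 MHC class II markers raised, with the immunoglobulin transcripts Ighm and Ighv11-2 also among its leading genes. The Gpnmb/Mgll kind (299 cells) and the Serpinb6b/Cpe kind (297 cells) each had 5 of 10 lipid-associated macrophage markers raised, the former with 5 of 5 MHC class II markers as well. The Lyve1/Cxcl13 kind (263 cells) had 5 of 10 resident macrophage markers raised, and the Cd209g/Ednrb kind (72 cells) 9 of 10. The Cd209g/Ednrb kind depended on the processing: its best match had a Jaccard index over cells of 0.146 to 0.321 with other filters, with doublets kept or at other clustering resolutions (4 settings), and 2 of these left no matching kind. The Prg4/Serpinb2 kind (251 cells) had 5 of 8 large peritoneal macrophage markers raised, Gata6 at 45.7 CPM among them, and 4 of 6 Arg1-high markers. The Met/Cxcl3 kind (217 cells) had 4 of 6 Arg1-high and 4 of 10 lipid-associated markers raised.

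Across named cell classes, 5 members were highest in macrophage-like cells (Mertk, Marco, Msr1, Cd163 and Mrc1), and the other 5 were highest elsewhere: Timd4 in dendritic cell-like cells, Axl and Pros1 in APC-like cells, Gas6 in mesothelial-like cells and Stab1 in lymphatic endothelial-like cells. These highest classes were the same under all 14 processing alternatives tried, of which the macrophage subclustering resolutions leave class levels unchanged and so could not alter them.

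**Figure D1:**
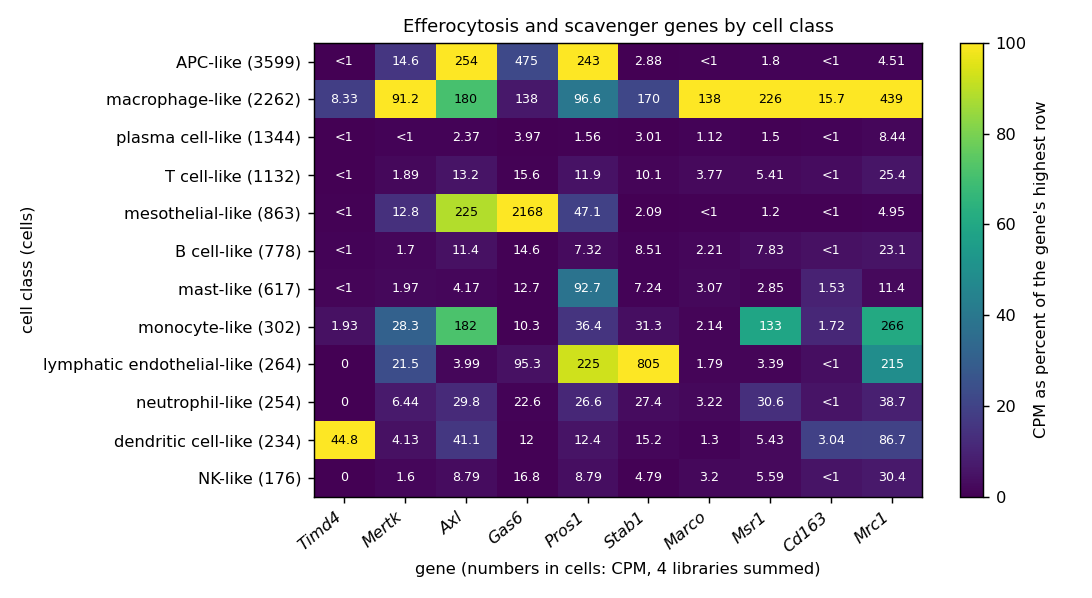
Heat map of the 10 members (columns) in the 12 named classes with at least 50 cells (rows, with cell numbers), with CPM over the 4 libraries printed in each square and colour giving the CPM as a percent of the gene's highest class. Marco is above 3.77 CPM only in macrophage-like cells (138 CPM), whereas Gas6 peaks in mesothelial-like cells (2168 CPM) and Stab1 in lymphatic endothelial-like cells (805 CPM).

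Timd4, the receptor that binds phosphatidylserine without a bridge, was rare. It was at 44.8 CPM (38.9 to 51.3) in dendritic cell-like cells, 8.33 CPM (7.55 to 9.17) in macrophage-like cells and 1.93 CPM (0.882 to 3.66) in monocyte-like cells, and at 0.0934 CPM (0.0403 to 0.184) in APC-like cells. Timd4 UMIs were found in 50 of 234 dendritic cell-like cells (21.4%) and in 97 of 2262 macrophage-like cells (4.29%), at median depths of 18767.5 and 20213.5 UMIs. After thinning each cell to 2000 UMIs the shares were 4.7% and 1.42%, against 0% of T cell-like and 0.129% of B cell-like cells, whose median depths were 6720 and 5852 UMIs. In dendritic cell-like cells the level was 46.3 CPM (36.6 to 57.7) in the library CD45- Tom- and 50.9 CPM (41.3 to 62.1) in CD45+ Tom-. The Tom+ libraries held 38 and 13 such cells, under the minimum for a level, and a Timd4 UMI was found in 4 of the 38 and in 6 of the 13. The summed level of the 10 macrophage markers in dendritic cell-like cells was 1214 and 1177 CPM in the Tom- libraries and 2481 CPM in the 38 cells of CD45- Tom+, against 18436, 18214 and 20203 CPM in the macrophage-like cells of the same libraries.

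Dendritic cells fall into subsets that take up, carry and present antigen in different ways, and a split by subset genes was made after the levels were seen. In 64 cells with UMIs of Xcr1 or Clec9a, marks of the cross-presenting subset, and none of Cd209a or Ccr7, Timd4 was at 62.1 CPM (50.6 to 75.6) and was detected in 26 cells. In 74 cells with only Ccr7, which marks migrating dendritic cells, it was at 32.6 CPM (23.5 to 44.1) and was detected in 13 cells. In 39 cells with only Cd209a the 19 Timd4 UMIs came from 2 cells. In the other 57 cells it was at 43.9 CPM (32 to 58.7), an interval that overlapped those of the first 2 groups, and was detected in 9 cells. Timd4 was thus present in dendritic cell-like cells with and without Xcr1 or Clec9a. The intervals of the first 2 groups did not overlap, but they rest on few cells and are too narrow, so no subset difference is read from them.

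Among macrophage kinds Timd4 was at 77.2 CPM (68.6 to 86.5) in the Lyve1/Cxcl13 kind, 18.9 CPM (12.1 to 28.1) in the Cd209g/Ednrb kind and 14.3 CPM (11.3 to 17.8) in the Prg4/Serpinb2 kind. It was at most 1.24 CPM in the other 5 kinds, with 0 UMIs in the 217 cells of the Met/Cxcl3 kind, where a count of 0 allows up to 0.683 CPM (3 counts). The Lyve1/Cxcl13 kind held 71.4% of the Timd4 UMIs of macrophage-like cells, and 22.8% of its cells had one (9.16% after thinning). The intervals of the Cd209g/Ednrb and Prg4/Serpinb2 kinds overlapped. Timd4 thus stood above the level of dendritic cell-like cells in 1 macrophage kind and below it in the other 7.

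Mertk, the TAM kinase of resting phagocytes, was at 91.2 CPM (88.6 to 93.9) in macrophage-like cells, 28.3 CPM in monocyte-like cells and 14.6 CPM (13.8 to 15.5) in APC-like cells. Of macrophage-like cells 16.8% held a Mertk UMI after thinning, against 0.386% of B cell-like and 0.445% of T cell-like cells. Mertk was detected in every macrophage kind, from 42.2 CPM (38.4 to 46.4) in the Serpinb6b/Cpe kind through 132 CPM (121 to 144) in the Lyve1/Cxcl13 kind and 139 CPM (131 to 148) in the Gpnmb/Mgll kind to 179 CPM (156 to 203) in the Cd209g/Ednrb kind. The Lyve1/Cxcl13 and Gpnmb/Mgll kinds did not differ beyond their intervals.

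Axl, the TAM kinase known to be induced by inflammation, was shared between stromal and myeloid cells. It was at 254 CPM (251 to 257) in APC-like, 225 CPM (219 to 231) in mesothelial-like, 182 CPM (170 to 194) in monocyte-like and 180 CPM (176 to 184) in macrophage-like cells, the last pair with overlapping intervals. After thinning, 28.2% of macrophage-like cells held an Axl UMI, against 2.7% of B cell-like and 2.76% of T cell-like cells. Among kinds it was at 258 CPM (245 to 272) in the Prg4/Serpinb2 kind and 220 CPM (210 to 231) in the Vcan/Il1b kind. The lowest level, 40.1 CPM (29.9 to 52.8), was in the Cd209g/Ednrb kind, the kind in which Mertk was highest. Both ends held in 8 of the 10 alternatives with a matching kind, but not with doublets kept (153 CPM for Axl there) or at the finer clustering (137 CPM).

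Gas6, the ligand that bridges phosphatidylserine to all TAM receptors, was at 2168 CPM (2150 to 2186) in mesothelial-like cells, 475 CPM (470 to 479) in APC-like cells and 138 CPM (134 to 141) in macrophage-like cells. Mesothelial-like cells held 44.1% of all Gas6 UMIs, APC-like cells 32.1% and macrophage-like cells 5.38%. In mesothelial-like cells Gas6 was at 1938 CPM in the library CD45- Tom+, 2224 CPM in CD45- Tom- and 2187 CPM in CD45+ Tom-. An unnamed cluster of 798 cells with both mesothelial and APC markers was at 735 CPM (724 to 745). Gas6 was thus a transcript of mesothelial and stromal cells by level and by share.

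Within macrophages Gas6 was at 1178 CPM (1119 to 1239) in the Cd209g/Ednrb kind, where all 72 cells held a UMI, 300.0 CPM (282 to 317) in the Lyve1/Cxcl13 kind and 182 CPM (173 to 192) in the Mgl2/H2-Eb1 kind. In the Vcan/Il1b kind it was at 15.1 CPM (12.5 to 18.1) and in the Met/Cxcl3 kind at 15.9 CPM (12.4 to 20.1), levels within the intervals of the 15.6 CPM (13 to 18.6) in T cell-like and 14.6 CPM (11.7 to 18.1) in B cell-like cells.

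Pros1 (protein S), the bridging protein that binds Mertk but is also an anticoagulant cofactor, was at 243 CPM (239 to 246) in APC-like cells, 225 CPM (212 to 239) in lymphatic endothelial-like cells and 96.6 CPM (93.9 to 99.4) in macrophage-like cells. In APC-like cells it was at 217, 247, 223 and 244 CPM in the 4 libraries. After thinning, 17.7% of macrophage-like cells held a Pros1 UMI, against 1.54% of B cell-like and 2.23% of T cell-like cells. Among kinds it was at 249 CPM (222 to 278) in the Cd209g/Ednrb kind, 199 CPM (185 to 213) in the Lyve1/Cxcl13 kind, 161 CPM (151 to 172) in the Prg4/Serpinb2 kind and 54.3 CPM (49.3 to 59.7) in the Gpnmb/Mgll kind. The Cd209g/Ednrb kind remained the highest for Pros1 in 7 of 10 alternatives.

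Stab1 (stabilin-1), a receptor of sinusoidal and lymphatic endothelium and of resident macrophages, was at 805 CPM (780 to 830) in lymphatic endothelial-like cells and 170 CPM (166 to 174) in macrophage-like cells. The lymphatic endothelial-like cells came almost wholly from the Tom+ libraries, with 826 CPM in the 178 cells of CD45- Tom+ and 762 CPM in the 85 cells of CD45+ Tom+. Among macrophage kinds Stab1 reached 856 CPM (806 to 909) in the Cd209g/Ednrb kind, then 319 CPM (301 to 337) in the Lyve1/Cxcl13 kind and 262 CPM (251 to 274) in the Mgl2/H2-Eb1 kind, and 43.5 CPM (37.5 to 50.1) in the Met/Cxcl3 kind. After thinning, 23.5% of macrophage-like cells held a Stab1 UMI, against 2.19% of B cell-like and 1.96% of T cell-like cells.

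Marco, a scavenger receptor for particles and bacteria, was the member most confined to macrophages in these libraries: macrophage-like cells held 93.7% of its UMIs, at 138 CPM (134 to 141). An unnamed cluster of 226 cells with macrophage, plasma cell and cycling markers, led by haemoglobin genes, held 2.4%. No named class but the macrophage-like one was above 3.77 CPM, the level in T cell-like cells. Within macrophages Marco was at 1149 CPM (1115 to 1183) in the Lyve1/Cxcl13 kind and 384 CPM (368 to 400) in the Prg4/Serpinb2 kind, which together held 64.4% and 31.5% of its macrophage UMIs. In the other 6 kinds it was at most 13.7 CPM. In the Cd209g/Ednrb kind, where Gas6, Pros1, Stab1, Cd163 and Mrc1 peaked, it was at 3.15 CPM (0.858 to 8.06), an interval that holds the level of T cell-like cells.

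Msr1 (scavenger receptor A), a receptor for modified lipoproteins, was broad among macrophages, at 226 CPM (222 to 230) in macrophage-like and 133 CPM (122 to 144) in monocyte-like cells, and detected in 33% of macrophage-like cells after thinning against 1.16% of both B and T cell-like cells. Its order over the kinds ran differently from that of Mrc1: 596 CPM (576 to 616) in the Prg4/Serpinb2 kind, 410 CPM (390 to 431) in the Lyve1/Cxcl13 kind, 284 CPM (273 to 296) in the Vcan/Il1b kind and 80.7 CPM (74.3 to 87.5) in the Mgl2/H2-Eb1 kind.

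Cd163, the haemoglobin-haptoglobin receptor, was rare like Timd4, at 15.7 CPM (14.6 to 16.9) in macrophage-like cells, and detected in 7.16% of them (2.35% after thinning, against 0.257% of B cell-like and 0% of T cell-like cells). It was at 206 CPM (182 to 233) in the Cd209g/Ednrb kind, 70.1 CPM (62 to 79) in the Lyve1/Cxcl13 kind and 20.4 CPM (17.3 to 24) in the Mgl2/H2-Eb1 kind, and at most 4.49 CPM in the other 5.

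Mrc1 (CD206), the mannose receptor often used as a mark of alternatively activated macrophages, was at 439 CPM (433 to 445) in macrophage-like cells, 266 CPM (251 to 281) in monocyte-like cells and 215 CPM (202 to 228) in lymphatic endothelial-like cells. An unnamed cluster of 146 cells with both macrophage and T cell markers was at 671 CPM (645 to 697). Among kinds Mrc1 was at 2589 CPM (2501 to 2679) in the Cd209g/Ednrb kind, 954 CPM (932 to 977) in the Mgl2/H2-Eb1 kind and 526 CPM (504 to 550) in the Lyve1/Cxcl13 kind. Over the 10 alternatives with a matching kind, the Cd209g/Ednrb kind stayed highest for Mrc1, Gas6, Stab1 and Cd163, at levels down to 1659, 537, 494 and 88.2 CPM. Mrc1 was at 82.2 CPM (75.9 to 88.9) in the Vcan/Il1b kind and 82.7 CPM (74.4 to 91.6) in the Met/Cxcl3 kind, which did not differ beyond their intervals. After thinning, 39.3% of macrophage-like cells held an Mrc1 UMI, against 3.6% of B cell-like and 5.25% of T cell-like cells.

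**Figure D2:**
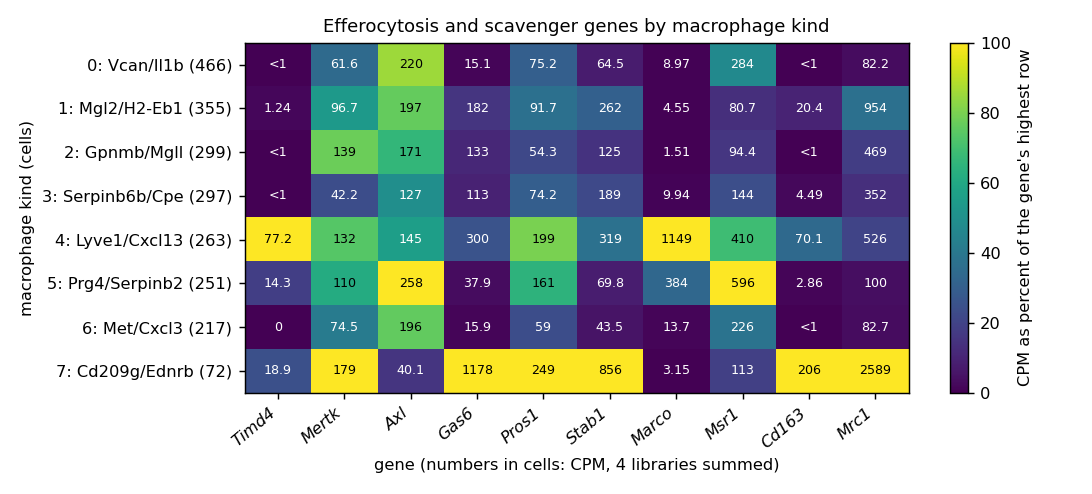
Heat map of the 10 members (columns) in the 8 macrophage kinds (rows, with cell numbers), with CPM over the 4 libraries printed in each square and colour giving the CPM as a percent of the gene's highest kind. Gas6, Stab1, Cd163 and Mrc1 peak in the Cd209g/Ednrb kind (1178, 856, 206 and 2589 CPM), Timd4 and Marco in the Lyve1/Cxcl13 kind (77.2 and 1149 CPM), and Axl and Msr1 in the Prg4/Serpinb2 kind (258 and 596 CPM).

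The comparison of Tom+ with Tom- macrophages asks how cells with past p16 promoter activity differ from those without it. A member was called where its level differed by at least 2-fold between both libraries of a pair and averaged 5 CPM or more over them. In the pair labelled CD45-, 4 of 10 members were called higher in the Tom+ library (Timd4, Marco, Cd163 and Gas6), against 0.968% of 8882 genes tested, and 0 of 10 lower, against 1.24%. In the pair labelled CD45+, 3 of 10 were called higher (Timd4, Cd163 and Gas6), against 1.02% of 8924 genes, and 0 of 10 lower, against 1.56%. The median log2 ratio of all genes tested was -0.0599 and -0.0649. As 1 library stands for each group, a call compares those libraries and not the conditions.

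In macrophage-like cells Timd4 was at 14 CPM in CD45- Tom+, 2.31 CPM in CD45- Tom-, 14.1 CPM in CD45+ Tom+ and 1.78 CPM in CD45+ Tom-. Both Tom+ libraries stood above both Tom- libraries, with a log2 ratio of 2.60 (95% exact interval 1.98 to 3.28) for the libraries labelled CD45- and 2.99 (2.35 to 3.69) for those labelled CD45+. Gas6 was at 186, 76.8, 203 and 79 CPM in the same order of libraries, log2 ratios of 1.27 (1.16 to 1.39) and 1.36 (1.25 to 1.48). Cd163 was at 19.6, 6.93, 27.1 and 10.1 CPM, log2 ratios of 1.5 (1.13 to 1.90) and 1.43 (1.12 to 1.75). For Gas6 and Cd163, too, the Tom+ and Tom- values did not overlap.

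Marco was at 179, 43.9, 196 and 116 CPM in the 4 libraries. Its log2 ratio was 2.03 (1.88 to 2.18) for the libraries labelled CD45- but only 0.75 (0.65 to 0.85), below 2-fold, for those labelled CD45+. Mrc1 was at 545, 298, 577 and 317 CPM, log2 ratios of 0.87 (0.81 to 0.93) and 0.86 (0.80 to 0.92). Stab1 was at 218, 129, 192 and 123 CPM, log2 ratios of 0.76 (0.67 to 0.85) and 0.64 (0.54 to 0.74). Both of these were higher in each Tom+ library than in each Tom- library without reaching 2-fold.

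The other members were nearly level. Mertk was at 95, 80.2, 106 and 85.3 CPM, with log2 ratios of 0.24 (0.12 to 0.37) and 0.31 (0.18 to 0.44), and Pros1 at 102, 91.7, 103 and 89.4 CPM, with log2 ratios of 0.15 (0.03 to 0.26) and 0.21 (0.08 to 0.34). Axl was at 158, 210, 147 and 207 CPM, with log2 ratios of -0.40 (-0.49 to -0.32) and -0.50 (-0.59 to -0.40). Msr1 was at 211, 268, 193 and 235 CPM, with log2 ratios of -0.34 (-0.42 to -0.27) and -0.29 (-0.38 to -0.20). Axl and Msr1, the members that peaked in the Prg4/Serpinb2 kind, were thus the only ones of the 10 that were lower in both Tom+ libraries, although the log2 ratios of Msr1 were 0.03 and 0.04 with macrophage kinds weighted equally. Transcripts of plasma cells moved with the label as well: the summed level of 6 plasma cell markers in macrophage-like cells was 2064 and 1845 CPM in the Tom+ libraries against 363 and 335 CPM in the Tom- libraries, while the 10 macrophage markers summed to 18214 to 20203 CPM in all 4. The part of this difference in the members' results was not tested.

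**Figure D3:**
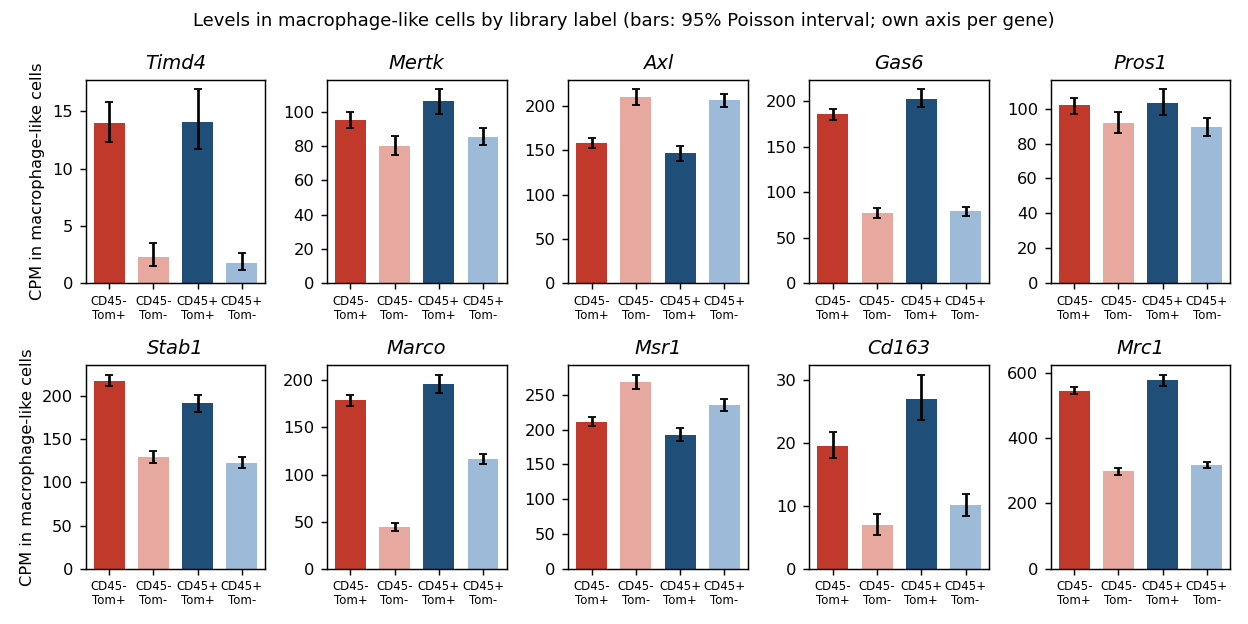
Bars give the CPM of each member in macrophage-like cells of the 4 libraries, each gene on its own linear axis from 0, and lines give 95% exact Poisson intervals. Timd4, Gas6, Cd163, Stab1, Mrc1 and Marco are higher in both Tom+ libraries than in both Tom- libraries, and Axl and Msr1 are lower.

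The kinds of macrophage were not in equal proportion under the labels. The Lyve1/Cxcl13 kind made up 16.1% (13.5 to 19, exact binomial) and 18.3% (14.5 to 22.6) of macrophage-like cells in the Tom+ libraries CD45- and CD45+, against 6.27% (4.33 to 8.74) and 6.93% (5.1 to 9.17) in the Tom- libraries. The Cd209g/Ednrb kind made up 5.06% and 7.26% against 0.196% and 1.08%, and the Mgl2/H2-Eb1 kind 20.8% and 19.4% against 10.8% and 11.7%. The Vcan/Il1b kind ran the other way, with 9.3% and 8.6% against 31% and 32%, as did the Met/Cxcl3 kind with 4.92% and 5.11% against 14.3% and 13.7%. These are shares of cells in sorted libraries, and the sort and the clustering can both set them.

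**Figure D4:**
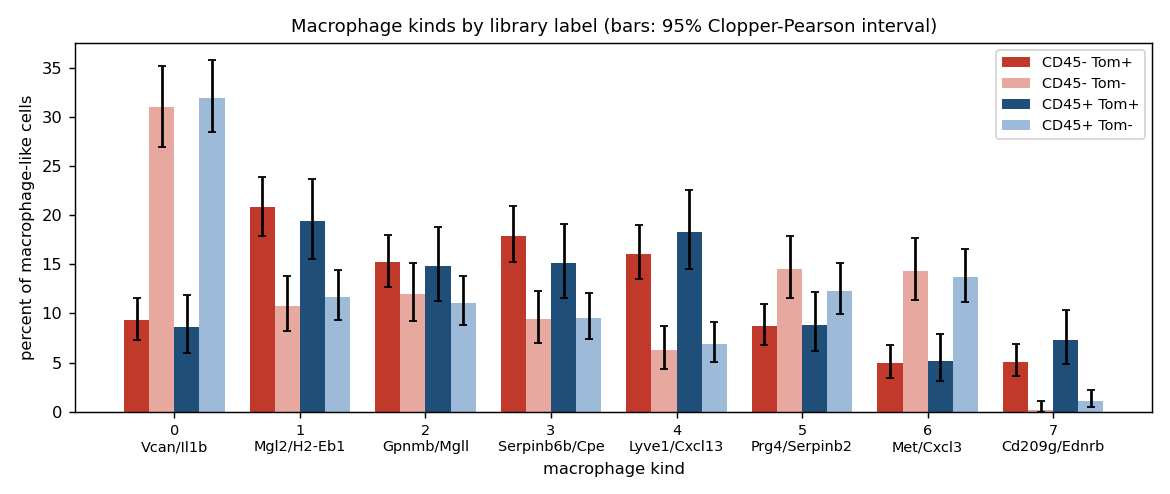
Bars give the percent of macrophage-like cells of each library in each of the 8 macrophage kinds, and lines give 95% exact binomial (Clopper-Pearson) intervals. The Lyve1/Cxcl13, Cd209g/Ednrb and Mgl2/H2-Eb1 kinds are larger in the Tom+ libraries, and the Vcan/Il1b and Met/Cxcl3 kinds in the Tom- libraries.

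Within a kind, several of the differences between Tom+ and Tom- libraries were small or ran the other way, and others remained. In the Lyve1/Cxcl13 kind Stab1 was at 333, 329, 294 and 306 CPM in the 4 libraries, log2 ratios of 0.02 (-0.25 to 0.29) and -0.06 (-0.33 to 0.21). In this kind Gas6 had log2 ratios of 0.26 (-0.02 to 0.56) and 0.18 (-0.10 to 0.47), Mrc1 of -0.33 (-0.53 to -0.14) and -0.04 (-0.25 to 0.17), and Cd163 of -0.36 (-0.86 to 0.15) and 0.21 (-0.47 to 0.92). In the Mgl2/H2-Eb1 kind Mrc1 was at 974, 899, 911 and 993 CPM, log2 ratios of 0.12 (0.01 to 0.22) and -0.12 (-0.23 to -0.01), and Stab1 had log2 ratios of 0.08 and -0.21. Cd163 in that kind was at 18.5, 9.25, 31.9 and 21.9 CPM, log2 ratios of 1.0 (0.03 to 2.13) and 0.54 (-0.15 to 1.25). Its UMIs came from 11, 5, 7 and 9 cells, which were 7.24%, 9.09%, 9.72% and 11.8% of the kind's cells. The shares thus ran against the levels, and no direction is read from Cd163 here. Gas6 in the Mgl2/H2-Eb1 kind had log2 ratios of 0.15 (-0.09 to 0.39) and 0.56 (0.30 to 0.83), so a difference remained in the pair labelled CD45+. Pros1 in that kind was lower in both Tom+ libraries, with -0.49 (-0.81 to -0.16) and -0.54 (-0.89 to -0.20). In the Gpnmb/Mgll kind Stab1 had -0.24 (-0.49 to 0.00) and 0.55 (0.25 to 0.85), of opposite sign. Differences remained as well in kinds where Gas6, Stab1 or Mrc1 was lower than in the Lyve1/Cxcl13 kind. Gas6 had log2 ratios of 1.59 (0.54 to 2.73) in the Met/Cxcl3 kind of the pair labelled CD45-, of -0.07 (-0.65 to 0.52) and 1.08 (0.51 to 1.64) in the Prg4/Serpinb2 kind and of 0.10 (-0.15 to 0.36) and 0.59 (0.31 to 0.88) in the Serpinb6b/Cpe kind. Stab1 in the pair labelled CD45- had 0.78 (0.21 to 1.37) in the Met/Cxcl3 kind, and Mrc1 0.72 (0.40 to 1.05) in the Prg4/Serpinb2 kind, where it had -0.25 (-0.71 to 0.19) in the other pair. The Cd209g/Ednrb kind had 1 and 7 cells in the Tom- libraries, too few for a level.

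The levels of Timd4 and Marco differed past 2-fold inside the Lyve1/Cxcl13 kind, and smaller differences were found there for other members. Msr1 had log2 ratios of 0.45 (0.20 to 0.71) and 0.38 (0.12 to 0.63), the reverse of its direction in all macrophage-like cells. Pros1 had 0.36 (-0.01 to 0.74) and 0.52 (0.17 to 0.88), Axl -0.25 (-0.63 to 0.14) and -0.62 (-1.02 to -0.23), and Mertk -0.26 (-0.66 to 0.15) and 0.21 (-0.20 to 0.63). Timd4 was there at 101 CPM (86.9 to 117) in CD45- Tom+ and 24.8 CPM (12.4 to 44.3) in CD45- Tom-, and at 106 CPM (85.3 to 130) in CD45+ Tom+ and 9.01 CPM (3.31 to 19.6) in CD45+ Tom-. The log2 ratios were 2.03 (1.15 to 3.05) and 3.55 (2.38 to 5.04). Timd4 UMIs were found in 29 of 118 and 22 of 68 cells of this kind in the Tom+ libraries and in 5 of 32 and 4 of 45 cells in the Tom- libraries. The Tom- values thus rest on 11 and 6 UMIs, and in the pair labelled CD45- the shares of cells did not differ beyond their intervals. Marco was at 1438, 225, 1436 and 587 CPM in this kind, log2 ratios of 2.68 (2.39 to 2.98) and 1.29 (1.12 to 1.46). Its UMIs came from 28, 4, 13 and 5 cells, and in each pair the shares of cells with a UMI had overlapping intervals. No direction is therefore read from Marco in this kind. In the Prg4/Serpinb2 kind, the other Marco-high kind, Marco was at 250, 188, 453 and 655 CPM, log2 ratios of 0.42 (0.19 to 0.64) and -0.53 (-0.71 to -0.36), of opposite sign, but these UMIs came from 9, 6, 2 and 12 cells, so no direction is read from them. Timd4 there had log2 ratios of 2.08 (1.08 to 3.23) and -0.04 (-1.56 to 1.32). Its UMIs came from 5, 2, 2 and 5 cells in the 4 libraries, so no direction is read from these ratios either.

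With the kinds given equal weight, over the 7 kinds of the pair labelled CD45- and the 6 of the pair labelled CD45+ that had at least 25 cells in both libraries, the log2 ratios of Timd4 were 2.01 and 2.60 and those of Marco 1.92 and 0.59. Those of Gas6 were 0.21 and 0.39, those of Mrc1 -0.02 and 0.00, those of Stab1 0.07 and -0.03 and those of Cd163 -0.12 and 0.24. The calls of Gas6 and Cd163 thus ended in both pairs under this weighting, which leaves out the Cd209g/Ednrb kind. They ended as well when 3 unnamed clusters with macrophage markers were added to the macrophage-like cells (0.70 and 0.86 for Gas6, 0.98 and 0.91 for Cd163). Timd4 stayed past 2-fold in both pairs (2.01 and 1.52). The added clusters were led by plasma cell genes, by haemoglobin and cycling genes, or by T cell genes. Without all barcodes shared between libraries the log2 ratios of Timd4 were 2.26 and 2.70.

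The members differed in how their UMIs were spread over macrophages. Marco was held by very few cells: 50 of 2262 macrophage-like cells (2.21%) with at least 10 Marco UMIs held 97.5% of them, with up to 634 UMIs in 1 cell. Such cells made up 2.46% (1.47 to 3.86) of macrophage-like cells in CD45- Tom+, 1.76% (0.81 to 3.32) in CD45- Tom-, 2.42% (1.11 to 4.54) in CD45+ Tom+ and 2.16% (1.18 to 3.59) in CD45+ Tom-. These 4 intervals overlap, so the higher Marco level of the Tom+ libraries did not come with a detectably larger share of Marco-high cells. In the Lyve1/Cxcl13 kind the Marco-high cells numbered 11, 2, 7 and 3 in the 4 libraries, and its Marco levels rest on them.

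Cells with at least 10 Mrc1 UMIs made up 43.1% (39.5 to 46.8) and 40.6% (35.6 to 45.8) of macrophage-like cells in the Tom+ libraries CD45- and CD45+, against 19.8% (16.4 to 23.5) and 22.5% (19.3 to 25.9) in the Tom- libraries. For Gas6 the shares were 14.8% (12.3 to 17.6) and 15.6% (12.1 to 19.7) against 3.92% (2.41 to 5.99) and 4.62% (3.14 to 6.53). For Mrc1 and Gas6 the shares of high cells in Tom+ and Tom- libraries did not overlap. Timd4 UMIs were found in 6.02% (4.41 to 8) and 8.87% (6.19 to 12.2) of macrophage-like cells in the Tom+ libraries against 1.76% (0.81 to 3.32) and 1.69% (0.849 to 3.01) in the Tom- libraries. The median depth of the macrophage-like cells was 22594, 18149, 20145.5 and 19431 UMIs, and after thinning the Timd4 shares were 1.5% (0.754 to 2.68) and 4.03% (2.27 to 6.56) against 0.589% (0.122 to 1.71) and 0.463% (0.0956 to 1.35). The thinned shares rest on 11, 3, 15 and 3 cells, and those of the pair labelled CD45- did not differ beyond their intervals.

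**Figure D5:**
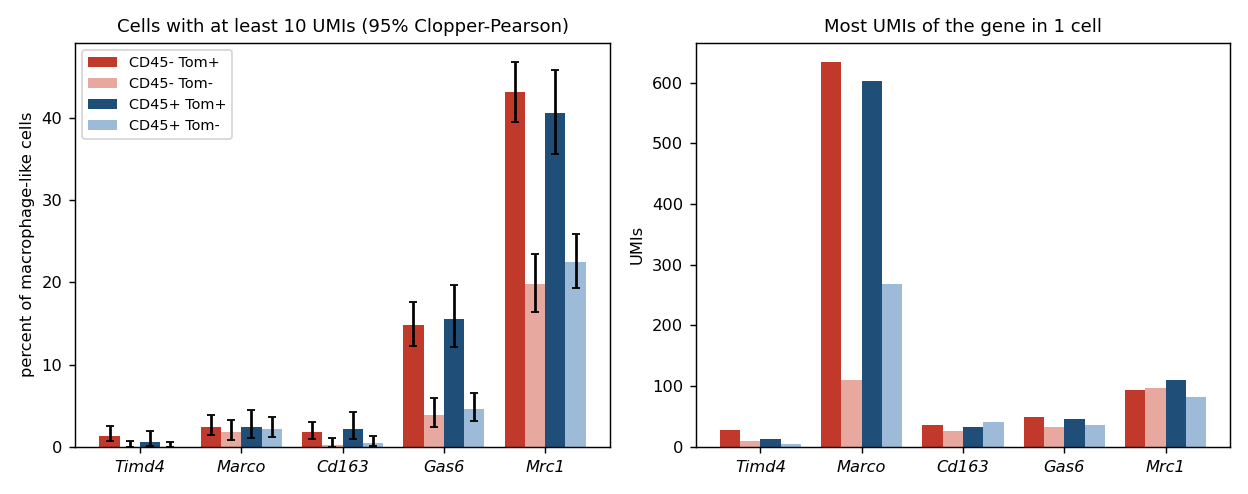
The left panel gives the percent of macrophage-like cells of each library with at least 10 UMIs of Timd4, Marco, Cd163, Gas6 or Mrc1, with 95% exact binomial intervals as lines, and the right panel the most UMIs of the gene in 1 cell. The intervals lie apart for Mrc1 and Gas6 and overlap for Marco (1.76% to 2.46%), whose highest cell held 634, 110, 602 and 268 UMIs in the 4 libraries.

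Members were also set side by side within single macrophage-like cells. Of the 97 cells with a Timd4 UMI, 34% held a Marco UMI and 39.2% a Cd163 UMI, against 5.27% and 5.73% of the cells without Timd4. Gas6 was found in 81.4% against 50.6%, whereas Axl was found in 60.8% against 76.4%. The median depth was 18044 UMIs in cells with Timd4 and 20298 in those without, so the higher shares were not accompanied by deeper cells.

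The same comparison in APC-like cells, the stromal source of Axl, Gas6 and Pros1, gave small differences for these members. Axl was at 218, 259, 212 and 257 CPM in the 4 libraries, log2 ratios of -0.25 (-0.34 to -0.17) and -0.28 (-0.40 to -0.16). Gas6 was at 439, 490, 537 and 463 CPM, with log2 ratios of opposite sign, -0.16 (-0.22 to -0.10) and 0.21 (0.14 to 0.29). Pros1 had log2 ratios of -0.19 (-0.27 to -0.10) and -0.13 (-0.25 to -0.01). In the pair labelled CD45-, 2 of 6 members tested were called higher in Tom+, Stab1 (9.8 against 2.85 CPM) and Mrc1 (15.5 against 4 CPM), against 1.32% of 9910 genes, and 0 of 6 lower, against 0.151%. The 10 macrophage markers moved with them in these cells, at 549 against 227 CPM in sum, and their part in the result was not tested. In the pair labelled CD45+, 0 of 4 members tested were called higher, against 1.02% of 9829 genes, and 0 of 4 lower, against 0.499%.

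Low levels of the receptors moved in lymphoid cells as well. In T cell-like cells of the pair labelled CD45-, Stab1 (14.7 against 5.23 CPM) and Msr1 (8.24 against 3.27 CPM) were the 2 of 6 members tested that were called higher, against 3.41% of genes, and 0 of 6 were called lower, against 5.35%. In those of the pair labelled CD45+, Mrc1 (23.1 against 10 CPM) was the 1 of 5 called higher, against 4.25%, and Axl (7.71 against 16.9 CPM) and Gas6 (5.78 against 14.6 CPM) were the 2 of 5 called lower, against 5.88%. These calls rest on 5 to 44 UMIs per library. In B cell-like cells of the pair labelled CD45-, 1 of 6 was called higher (Stab1, 13 against 5.63 CPM), against 2.39%, and 0 lower, against 5.67%. In the unnamed cluster with mesothelial and APC markers, 1 of 5 was called higher (Mrc1, 12 against 4.19 CPM), against 1.38%, and 0 lower, against 0.646%. Mrc1 had log2 ratios of 0.87 (0.32 to 1.46) and 1.21 (0.34 to 2.06) in T cell-like cells and 0.95 (0.17 to 1.79) in B cell-like cells, beside 0.87 and 0.86 in macrophage-like cells. The 10 macrophage markers in T cell-like cells summed to 814, 485, 667 and 405 CPM, and their part in these values was not tested.

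Likeness between genes was taken as Pearson's r of log2(CPM + 1) over 19 groups, the named classes and macrophage kinds with enough cells, as a description: the groups share 4 libraries and kinds of 1 class resemble each other. Stab1 and Mrc1 were the most alike pair of members (r = 0.92). The genes nearest to Marco were Cspg4 (0.89) and Vsig4 (0.86), a complement receptor of resident macrophages. Those nearest to Cd163 were Pla2g2d (0.94), Fcna (0.93) and C6 (0.90). Mertk was nearest to the lysosomal genes Grn and Lamp1 and to Dram2 (0.97 each), Msr1 to Ccl6 (0.97) and to the lysozyme gene Lyz2 (0.96), and Axl to Lrp1 (0.97), itself a receptor for apoptotic cells. Gas6 was nearest to Adam33 (0.93). Timd4 had the lowest best match, Hdac9 (0.74).

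Of 111 other genes of uptake listed with the members, 110 were in the table and 87 passed the minimum level in macrophage-like cells of each pair. In the pair labelled CD45- 5 of 87 were called higher in Tom+ (against 0.968% of all genes) and 3 lower (against 1.24%), and in the pair labelled CD45+ 4 higher (1.02%) and 5 lower (1.56%), with median log2 ratios of -0.01 and -0.03. None of the 17 engulfment genes, such as those of the cytoskeletal machinery, and none of the 15 genes of lipid and sterol handling was called in either pair. The genes called higher in both pairs were Cd209f, Slc40a1 and Irf4. Cd209f, a lectin receptor, had log2 ratios of 5.07 and 4.06. Slc40a1, which encodes the iron exporter ferroportin, had 2.62 and 2.60, and Irf4, a transcription factor, had 1.92 and 1.38. Those called lower in both were Cx3cr1, the fractalkine receptor (-1.41 and -1.38), Hp, which encodes haptoglobin (-1.77 and -1.41), and Thbs1, a bridging protein for apoptotic cells (-1.0 and -1.31).

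These genes followed the kinds as well. Cd209f was at 426 CPM in the Cd209g/Ednrb kind and at most 18.8 CPM in the other 7 kinds, and Slc40a1 at 317 CPM in that kind and at most 52.7 CPM in the others. Thbs1 was at 847 CPM and Cx3cr1 at 279 CPM in the Vcan/Il1b kind, the highest of the 8 kinds for both. Irf4 was at 38.6 CPM in the Mgl2/H2-Eb1 kind, which had immunoglobulin transcripts among its leading genes. It was at 25.4 CPM in the Lyve1/Cxcl13 kind, 25.2 CPM in the Cd209g/Ednrb kind and at most 15.2 CPM in the others. Plasma cell transcripts were also higher in Tom+ macrophage-like cells, and their part in the Irf4 call was not tested. Hp, whose product forms the ligand of Cd163 with haemoglobin, was at 194 CPM in the Vcan/Il1b and Met/Cxcl3 kinds and at 26 CPM in the Cd209g/Ednrb kind, the kind in which Cd163 was highest. Among the 110 genes the TAM receptor Tyro3 had at most 4 UMIs in macrophage-like cells of any library, and Havcr1, a relative of Timd4, at most 1.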

How the data were processed

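Cells of gonadal adipose tissue sorted by CD45 and tdTomato were measured by droplet RNA sequencing (10x 3′) in 4 libraries, 1 per group. The deposited values are raw UMI counts per gene and barcode, which the authors made with Cell Ranger 3.0.2 on mm10. The libraries as deposited held 3429 to 11255 barcodes and 64083756 to 139397501 UMIs. How many animals went into a library is not given in the sources used here.

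Barcodes were kept where more than 1000 but fewer than 7000 genes were detected and mitochondrial transcripts made up less than 8% of UMIs, and those with the highest Scrublet scores left out (0.8% per 1000 barcodes, 54 to 427 per library). Cells were clustered in scanpy 1.11.5 with leidenalg 0.10.2 (2000 variable genes, without the members and the other listed genes, 30 components, 15 neighbours, resolution 1), and macrophage-like cells again at resolution 0.8. A class needed at least 3 markers at 20 CPM or more and 4-fold over the median cluster (2-fold for kinds). Levels, 95% exact intervals (Poisson, Clopper-Pearson, and conditional binomial for ratios, scipy 1.17.1) and floors of 3 counts were taken from summed counts and cover counting error only. Cells were thinned to 2000 UMIs to compare shares. Contrasts were limited to classes holding 100 cells or more in each library of a pair. A call needed 2-fold and a mean of 5 CPM. On simulated counts for macrophage-like cells of the pair labelled CD45-, with 8865 genes and 200 changed, 99.5% of the changed genes were called. All planted changes were larger than the 2-fold limit of a call, so a high rate followed from the settings. The counts were drawn as Poisson counts, without an uneven spread over cells. The rate therefore does not cover members whose UMIs sit in few cells. All 10 members are named. Of the other listed genes, those called the same way in both pairs are named, and for likeness genes among those with the highest correlations, of which 1 result is not reported here. The members and lists were chosen with earlier results of these data known. The alternatives varied filters, doublets, clustering, weighting, thinning, shared barcodes and thresholds. Promoters came from RefSeq (GRCm38.p6).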

Additional observations from a re-analysis of the deposited data

Results flagged for a closer look

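Gas6, the bridging ligand of the TAM receptors, differed in direction between the pairs of libraries in APC-like cells. Its log2 ratio of Tom+ over Tom- was -0.16 (-0.22 to -0.10) in the libraries labelled CD45- and 0.21 (0.14 to 0.29) in those labelled CD45+. The Tom+ libraries held 260 and 106 APC-like cells, against 1519 and 1714 in the Tom- libraries. With 1 library per group the difference between the pairs was not tested.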

How the results depend on the processing

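No paired analysis was possible because each group is 1 library, no result comes from a replicated test, and the labels give no replicate numbers shared between groups. Over 14 alternatives the log2 ratios of Timd4 (1.15 to 4.32 and 1.52 to 4.95 for the pairs labelled CD45- and CD45+), Marco (1.30 to 2.39 and 0.10 to 0.99), Gas6 (0.21 to 1.72 and 0.19 to 1.57) and Axl (-0.92 to -0.12 and -0.83 to -0.33) kept their sign in both pairs. That of Cd163 reversed, to -0.12 in the pair labelled CD45- with kinds of at least 25 cells weighted equally, and to -0.55 in the pair labelled CD45+ with all 8 kinds weighted equally. The ranges of members below 2-fold also crossed 0. With all 8 kinds weighted equally the log2 ratios of Stab1 were -0.63 and -0.37, and those of Mrc1 reached -0.02 and -0.04 under the 2 weightings and those of Msr1 0.03 and 0.04. With the unnamed macrophage-marker clusters added, Mertk was at -0.28 and -0.14 and Pros1 at -0.40 and -0.30. Members called higher numbered 4 in the pair labelled CD45-, 6 at 1.5-fold, and 2 both with kinds of at least 25 cells weighted equally and with the unnamed macrophage-marker clusters added. In the pair labelled CD45+ they numbered 3, but 6 at 1.5-fold and 1 under each of these settings: kinds of at least 25 cells weighted equally, all 8 kinds weighted equally, and the unnamed clusters added. Without the 1% of cells richest in the gene, the log2 ratios of Timd4 were 4.32 and 4.95. The lowest Timd4 levels of the Tom- libraries over the alternatives were 0.304 CPM (CD45-) and 0.299 CPM (CD45+). The floors of 3 counts were at 0.301 and 0.222 CPM, so no growth of the difference is read from these larger ratios. The kind weightings, the added clusters, the subclustering resolutions and the removal of shallower barcode copies were chosen after seeing the data, and the cell minimum in the first weighting was set after the weighting without it had been seen. The subclustering resolutions leave class levels and ratios unchanged, and removing shallower copies took out only 2 macrophage-like cells. Thinning, equal weight for each cell and removal of the cells richest in a gene keep the kinds of the main clustering. A count of alternatives in which a result held is therefore not a count of independent checks. Counting depth limits Timd4 and Cd163 most, and few cells carry them. The 2% of macrophage-like cells richest in the gene held 83.8% of Timd4 UMIs and 76.5% of Cd163 UMIs, beside 96.8% for Marco. The intervals of these members are thus too narrow, and nothing here measures variation between animals.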
